A study of Mus musculus with 50 samples.

Results

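Synaptosomes from the frontal cortex of 10 Sod2 knockout mice (HKO) were compared with those of 10 wild-type mice (HWT), all given the high dose of a synthetic antioxidant, 30 mg/kg of EUK189 by the treatment field (the sample titles call it EUK8). These are 20 of the 50 arrays of the study, chosen by their labelled genotype and dose alone, and the question was which genotype differences in RNA level were present under the high dose. The knockout was constitutive, the background was CD1 and the mice were 17 to 21 days old in every group. The other mice were 10 knockouts (LKO) and 11 wild types (LWT) given 1 mg/kg, and 9 untreated wild types (WT). No untreated knockouts are among the samples, so the low dose is the nearest point of comparison for the high dose. Total RNA was measured on Illumina MouseRef-8 bead arrays, 1 per mouse.

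SOD2 is a manganese enzyme in the matrix of mitochondria, where it turns superoxide released by the respiratory chain into hydrogen peroxide. Mice without it are born alive and die young, with failing hearts, livers and brains, and superoxide inactivates iron-sulfur enzymes such as aconitase and complex II. EUK compounds are salen-manganese complexes that act as small catalysts with superoxide dismutase and catalase activity and prolong the life of these knockouts. Synaptosomes are nerve terminals that are pinched off and resealed when cortex is homogenised, and the preparation carries some RNA of glia and cell bodies with it.

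The presynaptic list, which holds the genes for synaptic vesicle and release proteins, was well represented: 25 of its 28 members on the array passed the filter on low signal, with a mean log2 level of 8.50 to 9.36 in HKO mice and 8.74 to 9.22 in HWT mice. RNA of other cells was present as well, since 19 of 20 astrocyte markers, 19 of 20 microglial markers and 16 of 17 myelin markers passed the same filter. In HKO mice their mean log2 levels were 8.45 to 8.99 (astrocyte), 7.16 to 7.61 (microglial) and 8.56 to 9.09 (myelin). In HWT mice they were 8.42 to 8.78, 7.29 to 7.82 and 8.45 to 9.03, so astrocyte and myelin markers were about as bright as presynaptic genes. Fewer cells of a type and less RNA per cell cannot be told apart in such material. Median raw signal per array ran from 54.1 to 76.4 in HKO mice and from 59.2 to 78 in HWT mice, and pairs of high-dose arrays correlated at 0.952 to 0.987. HKO mouse 1 stood apart from its group: of the 51 probes called higher in HKO mice it had the highest HKO level in 25, and of the 27 called lower it had the lowest HKO level in 21.

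The targeted gene came first. The Sod2 probe read 9.68, 10.1 and 10.5 (lowest, median and highest normalised log2 signal) in HKO mice, against 9.4, 9.91 and 10.15 in HWT mice. The groups overlapped, and the fitted difference of 0.24 ± 0.0947 (SE, log2) had an adjusted p of 0.271. At the low dose the same probe was called higher in knockouts, by 0.41 ± 0.0954 (adjusted p = 0.00119). The interaction of -0.17 was not called (adjusted p = 0.588). The labels and files do not place this probe relative to the deleted stretch; its signal therefore does not check the genotype, and loss of the enzyme was not measured.

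Under the high dose the knockout left a small set of changed genes. Of 13527 probes tested in 10142 genes, limma called 78 probes in 75 genes at an adjusted p under 0.05 (0.577% of probes), 51 higher in HKO mice (0.377%) and 27 lower (0.2%); with median scaling of the arrays the split was 20 higher and 28 lower. Before adjustment 1520 probes (11.2%) had p under 0.05. With 1 probe per gene, 48.7% of the differences were positive. Differences were mostly modest, with a median size of 0.51 on the log2 scale, and 3 genes were over 2-fold higher: Enpp5, Nupr1 and Etnppl. No gene was over 2-fold lower. HKO and HWT ranges did not overlap for 9 of the 78 probes (10 of all tested, 0.0739%): Txnip, Agt, Dcpp1, Rbm3 and Bcl6 lay above in every HKO mouse, and Fcrls, Cyp51, H3c6 and Ank1 lay below in every HKO mouse. The 2 genotypes shared 6 array chips, and the difference had the fitted sign on 6 of 6 chips for 65 called probes and on 5 of 6 for the other 13. The probes were called on these same arrays, which by itself favours a shared sign across chips. The count depended on single mice: it was 26 without HKO mouse 1, 28 without HKO mouse 5, 36 without HKO mouse 8 and 125 without HKO mouse 6. It also passed a 1.5-fold change without HKO mouse 3 (46), HKO mouse 9 (51) and HWT mice 12 (49), 15 (46), 17 (45), 18 (50) and 19 (48).

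**Figure D1:**
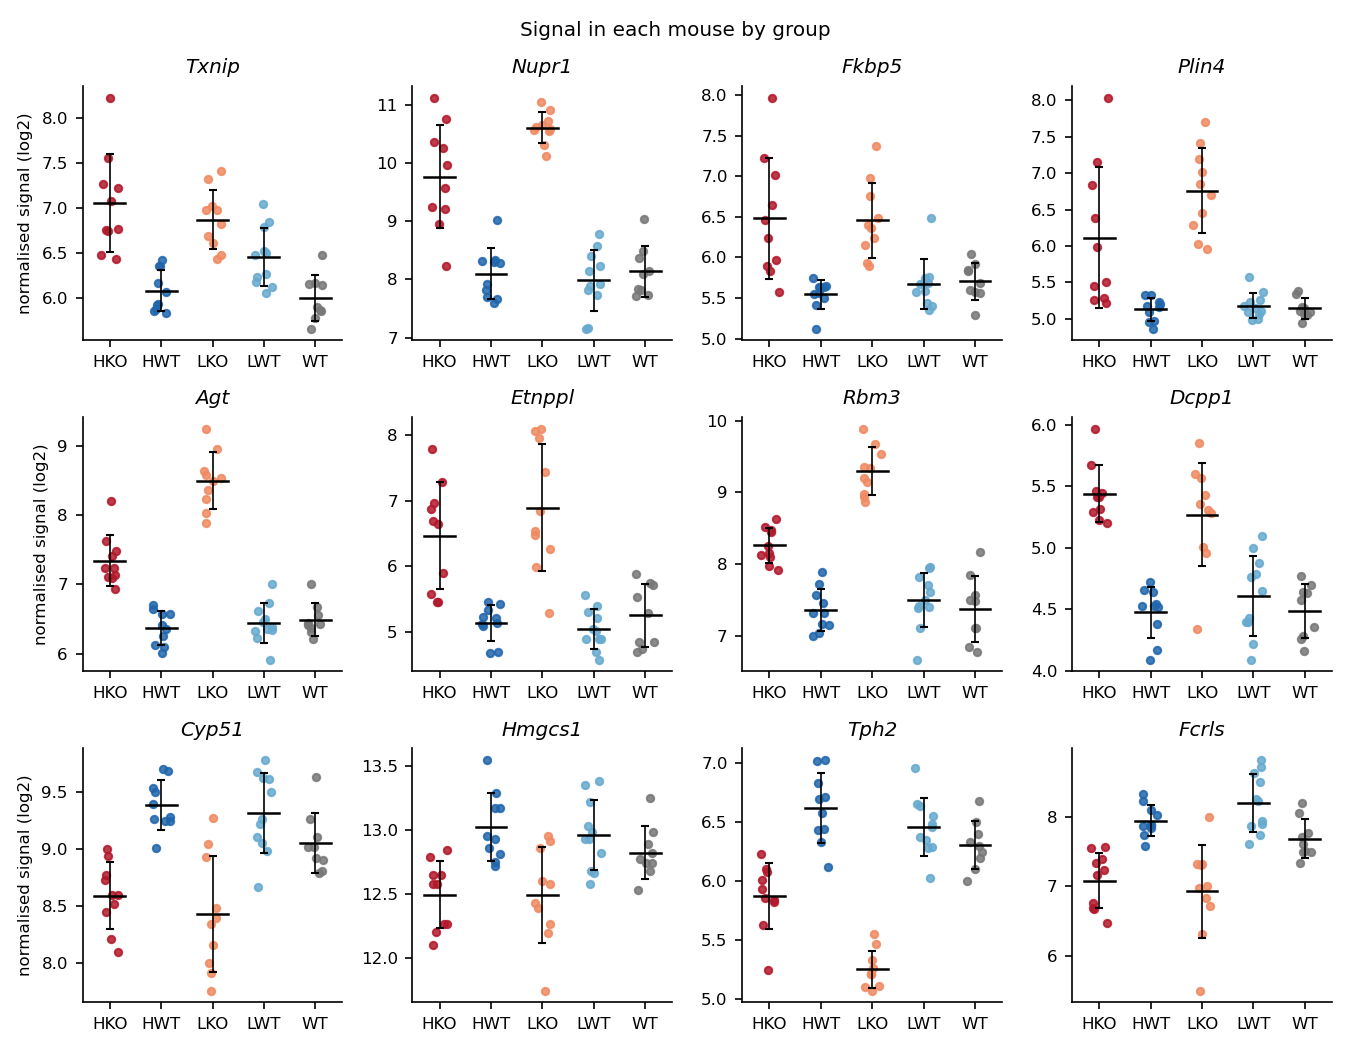
Normalised signal (log2, y axis) of 12 genes in each mouse; columns are HKO (30 mg/kg knockouts), HWT (30 mg/kg wild types), LKO (1 mg/kg knockouts), LWT (1 mg/kg wild types) and WT (untreated wild types), with 1 point per mouse, a bar at the mean and whiskers of 1 SD. Txnip, Agt, Rbm3 and Dcpp1 lay higher in all 10 HKO mice than in any HWT mouse, and Cyp51 and Fcrls lay lower; Agt and Rbm3 were higher in LKO than in HKO mice.

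Of 16 genes of cholesterol synthesis tested, 3 fell in HKO synaptosomes and none rose, beside 0.2% of all probes called lower. A negative difference was seen in 15 of 16, and the list's median was -0.23 against -0.003 over all genes tested. The mean level of the list ran from 7.16 to 7.50 in HKO mice and from 7.48 to 7.74 in HWT mice (log2), and it was lower in HKO mice on 6 of 6 chips. The 3 that fell were Hmgcs1, the cytosolic HMG-CoA synthase at the head of the pathway, Cyp51, the lanosterol demethylase that acts on the first sterol of the pathway, and Sc5d, which sets the double bond of lathosterol late in the pathway. Their RefSeq promoters (build GRCm38.p6, 250 bases before to 50 after the start, 5′ to 3′) are shown because this pathway is controlled together by SREBP2, which binds sterol regulatory elements next to NF-Y at CCAAT boxes. Capitals mark the CCAAT box (CCAAT) and a sterol regulatory element (TCACNCCAC) on either strand.
Hmgcs1, chr13:119690101-119690400, plus strand: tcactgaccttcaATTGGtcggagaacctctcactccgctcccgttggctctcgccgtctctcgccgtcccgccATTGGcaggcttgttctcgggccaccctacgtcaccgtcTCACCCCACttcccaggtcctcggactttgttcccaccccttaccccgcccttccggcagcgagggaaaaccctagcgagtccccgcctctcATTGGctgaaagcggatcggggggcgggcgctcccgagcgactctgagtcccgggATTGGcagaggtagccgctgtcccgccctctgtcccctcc
Cyp51, chr5:4104648-4104947, minus strand: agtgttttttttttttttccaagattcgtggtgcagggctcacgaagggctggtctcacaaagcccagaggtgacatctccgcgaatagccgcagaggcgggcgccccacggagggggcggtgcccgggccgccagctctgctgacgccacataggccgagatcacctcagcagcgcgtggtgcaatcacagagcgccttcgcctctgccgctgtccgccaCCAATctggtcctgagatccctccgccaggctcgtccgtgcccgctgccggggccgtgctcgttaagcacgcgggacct
Sc5d, chr9:42264251-42264550, minus strand: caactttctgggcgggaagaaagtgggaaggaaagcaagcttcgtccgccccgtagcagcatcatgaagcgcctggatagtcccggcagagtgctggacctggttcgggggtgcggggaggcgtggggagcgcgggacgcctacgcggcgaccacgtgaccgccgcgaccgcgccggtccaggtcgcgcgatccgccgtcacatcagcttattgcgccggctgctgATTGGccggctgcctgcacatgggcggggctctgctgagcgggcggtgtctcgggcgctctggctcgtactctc
The Hmgcs1 window held 4 CCAAT boxes and 1 match to TCACNCCAC. The Cyp51 and Sc5d windows held 1 CCAAT box each and no match to TCACNCCAC. Other forms of the sterol regulatory element were not searched for, so a window without a match may still hold one. Among all 32851 RefSeq promoters, 37.41% held CCAAT and 1.24% held TCACNCCAC; among the 16 promoters found for 13 of the 16 tested cholesterol genes, 12 held CCAAT and 1 held TCACNCCAC. A match describes the letters in the window and does not show a bound site.

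Cyp51 had the clearest fall of the pathway, reading 8.1, 8.6 and 9.0 (lowest, median, highest) in HKO mice against 9.01, 9.33 and 9.7 in HWT mice. No HKO mouse reached the lowest HWT mouse, and the difference was -0.80 ± 0.145, or 1.74-fold lower (adjusted p = 0.00171). Hmgcs1 read 12.1, 12.58 and 12.84 in HKO mice against 12.72, 12.94 and 13.55 in HWT mice. Its groups overlapped at the edge, with a difference of -0.51 ± 0.127 (adjusted p = 0.0456). Sc5d read 5.59, 6.13 and 6.58 in HKO mice against 6.37, 6.55 and 7.01 in HWT mice, a difference of -0.49 ± 0.116 (adjusted p = 0.0355). Just past the threshold lay Acat2, the cytosolic acetoacetyl-CoA thiolase, at -0.36 ± 0.0987 (adjusted p = 0.0729) and Fdps, the farnesyl diphosphate synthase, at -0.33 ± 0.0938 (adjusted p = 0.0942). Acat2 lies 2 protein-coding genes before Sod2 on chromosome 17. For Acat2, an effect of the chromosome segment around the knockout allele and one of the missing enzyme cannot be told apart. The call of Cyp51 held with each of the 20 high-dose arrays left out in turn, whereas that of Sc5d was lost without 9 of them and that of Hmgcs1 without 14 (highest adjusted p 0.133 and 0.146).

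Neighbouring lipid lists held no call. None of 11 fatty acid synthesis genes passed the test, although their median of -0.24 was as low as that of the cholesterol genes, 8 of 11 were negative and their mean level was lower in HKO mice on 6 of 6 chips; Acaca, the acetyl-CoA carboxylase of cytosolic fatty acid synthesis, had the smallest p of the list, at -0.21 ± 0.0729 (adjusted p = 0.189). None of 15 genes of sterol regulation, uptake and export passed either, with a median of -0.02, and Cyp46a1, the neuronal cholesterol 24-hydroxylase, was at -0.30 ± 0.171 (adjusted p = 0.531). At the low dose 6 of the 16 synthesis genes fell and 1 rose (10% and 10.7% over all probes), with the same median of -0.23. The genotype difference of Cyp51, Hmgcs1 and Sc5d was not called different between doses (interaction adjusted p = 0.827, 0.909 and 0.204). It was called different for 1 other of the 16 synthesis genes and for 2 of the 11 fatty acid synthesis genes, beside 2.95% of all probes. Of those 11, 2 rose and 2 fell at the low dose, with a median of -0.1.

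The integrated stress response, in which phosphorylated eIF2 alpha favours translation of the transcription factor ATF4, was represented by 2 called genes. Of 23 targets tested, Nupr1 and Atf5 rose and none fell, beside 0.377% of all probes called higher. A positive difference was seen in 18 of 23, and the median was 0.10. Nupr1, a small stress-induced chromatin protein, read 8.23, 9.78 and 11.13 in HKO mice against 7.59, 8.11 and 9.02 in HWT mice. The 2 ranges overlapped, and 9.02 was a lone high HWT mouse. Its difference of 1.66 ± 0.247, or 3.16-fold (adjusted p = 8.12e-05), was the second largest of the comparison and held with each high-dose array left out. Its RefSeq promoter is shown for the ATF4 and C/EBP composite element (TGATGNAA, in capitals, here on the opposite strand), which 3.97% of all promoters held on either strand and 8 of the 22 promoters of 19 tested genes of this list held.
Nupr1, chr7:126625421-126625720, minus strand: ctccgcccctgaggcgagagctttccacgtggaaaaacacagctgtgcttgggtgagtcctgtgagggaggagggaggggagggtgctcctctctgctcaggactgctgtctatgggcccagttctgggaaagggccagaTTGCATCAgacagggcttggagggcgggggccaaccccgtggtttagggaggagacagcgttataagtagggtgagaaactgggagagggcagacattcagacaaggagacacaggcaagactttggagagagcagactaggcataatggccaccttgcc
Atf5, a mitochondrial stress transcription factor itself induced through ATF4, read 7.08, 8.05 and 9.04 in HKO mice against 6.67, 7.35 and 7.75 in HWT mice. The ranges overlapped, the difference was 0.81 ± 0.202 (adjusted p = 0.0456), and the call was lost without 12 of the 20 arrays (highest adjusted p 0.142). At the low dose 16 of the 23 targets rose, beside 10.7% of all probes, and the median was 0.41. The genotype difference of Atf5 was smaller at the high dose than at the low dose by 1.11 (interaction adjusted p = 0.0198), and for Nupr1 the interaction of -0.93 was not called (adjusted p = 0.144).

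Antioxidant genes did not pass the test at the high dose, where 0.377% of all probes were called higher, against 10.7% at the low dose. None of 23 Nrf2 targets (median 0.14, 18 positive) and none of 21 antioxidant enzymes (median 0.10, 19 positive) was called, a count near the share over all probes. At the low dose 14 and 9 of them rose. The enzyme list holds Sod2 itself, which is among its 19 positive members and among the 9. The member nearest to a call was Gstm1, a glutathione transferase, at 9.96, 10.91 and 11.7 in HKO mice against 9.72, 10.37 and 10.75 in HWT mice. Its difference was 0.61 ± 0.159 (adjusted p = 0.0544), against 1.47 at the low dose, and the interaction was called (-0.86, adjusted p = 0.0223). The other Gstm1 probe was at -0.15 ± 0.115 at the high dose (adjusted p = 0.685). Prdx4, the peroxiredoxin of the endoplasmic reticulum, was at 0.31 ± 0.0841 (adjusted p = 0.0706).

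Of 17 genes of fasting, FoxO signalling and glucose sensing tested, Txnip, Angptl4 and Bcl6 rose in HKO mice and none fell. The other 14 did not pass the test, and the median was 0.23. Over all probes 0.377% were called higher. Txnip, the thioredoxin-interacting protein that restrains thioredoxin and glucose uptake, read 6.44, 6.93 and 8.23 in HKO mice against 5.84, 6.0 and 6.42 in HWT mice. The ranges did not overlap, and the difference was 0.99 ± 0.148, or 1.99-fold (adjusted p = 8.12e-05). Txnip differed by 0.43 at the low dose (adjusted p = 0.0344), and the interaction of 0.57 was not called (adjusted p = 0.136). Bcl6, a transcriptional repressor that FoxO factors induce, read 7.03, 7.36 and 7.59 in HKO mice against 6.69, 6.91 and 7.01 in HWT mice, again without overlap (0.41 ± 0.0834, adjusted p = 0.00661). The calls of both held without each array. Angptl4, a fasting-induced inhibitor of lipoprotein lipase, read 5.68, 6.36 and 8.42 in HKO mice against 5.34, 5.69 and 6.2 in HWT mice, with overlap. Its difference of 0.78 ± 0.192 (adjusted p = 0.0435) lost the call without 13 of the 20 arrays, and the value of 8.42 belonged to HKO mouse 1.

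All 14 glucocorticoid-responsive genes tested had a positive difference and 5 of them rose, beside 0.377% of all probes called higher. The median was 0.24, and the mean level of the list was 7.42 to 8.61 in HKO mice and 7.15 to 7.56 in HWT mice. The list was higher in HKO mice on 5 of 6 chips. Fkbp5, a co-chaperone that restrains the glucocorticoid receptor, read 5.58, 6.35 and 7.97 in HKO mice against 5.12, 5.59 and 5.75 in HWT mice. The ranges overlapped, the value of 7.97 belonged to HKO mouse 1, and the difference was 0.93 ± 0.183, or 1.91-fold (adjusted p = 0.0044). Nfkbia, which encodes the NF-kappa-B inhibitor I kappa B alpha, was higher by 0.84 ± 0.174 (adjusted p = 0.00833). Tsc22d3, the glucocorticoid-induced leucine zipper, was higher by 0.84 ± 0.203 (adjusted p = 0.0407), and Sult1a1, a phenol sulfotransferase, by 0.72 ± 0.179 (adjusted p = 0.0435). The fifth was Plin4, described next. HKO mouse 1 had the highest HKO value in each of these 5 genes. The calls of Fkbp5 and Nfkbia held without each array, while those of Tsc22d3 and Sult1a1 were lost without 12 and 17 of the 20 (highest adjusted p 0.146 and 0.152). At the low dose 7 of the 14 rose, beside 10.7% of all probes, with a median of 0.34, and no member had a called interaction.

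Lipid droplet and fatty acid oxidation genes gave 5 rises and no fall among 18 tested, with a median of 0.17, beside 0.377% of all probes called higher. Plin4, a perilipin that coats lipid droplets, read 5.22, 5.75 and 8.04 in HKO mice against 4.86, 5.17 and 5.32 in HWT mice. HKO mice spread widely and overlapped the HWT range at the low end; the difference was 1.00 ± 0.219, or 2.0-fold (adjusted p = 0.0165). It lost the call without HKO mouse 1, HKO mouse 5 or HKO mouse 8 (highest adjusted p 0.0638, lowest difference 0.77). Pnpla2, the adipose triglyceride lipase, was higher by 0.61 ± 0.152 (adjusted p = 0.0435) and Acadvl, the mitochondrial very-long-chain acyl-CoA dehydrogenase, by 0.37 ± 0.0891 (adjusted p = 0.0407). Both were smaller at the high dose than at the low dose by a called interaction (-0.81 and -0.46, adjusted p = 0.0247 and 0.0297).

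Plin2, another lipid droplet coat protein, ran the other way between doses. It read 4.97, 5.09 and 5.66 in HKO mice against 4.3, 4.83 and 5.26 in HWT mice, with overlap, and was above background in 4 HKO mice and 1 HWT mouse. Its difference was 0.41 ± 0.0997 at the high dose (adjusted p = 0.0423) and -0.17 at the low dose (adjusted p = 0.266), with a called interaction of 0.57 (adjusted p = 0.0139). Pnpla2, Acadvl and Plin2 lost their high-dose calls without 13, 14 and 11 of the 20 arrays. At the low dose 12 of the 18 list members rose, beside 10.7% of all probes, and the median was 0.62.

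The mitochondrial lists held few calls, as lists of their size would at the share of 0.577% called over all probes. Of 18 genes of the tricarboxylic acid cycle and complex II, Idh2, the matrix NADP isocitrate dehydrogenase, was the single call (0.56 ± 0.139, adjusted p = 0.0435, lost without 12 of the 20 arrays). The median of that list was 0.07 against 0.37 at the low dose, where 12 rose, beside 10.7% of all probes. No gene was called among 33 of complex I (median 0.09), 13 mitochondrial chaperones and proteases (median 0.02), 13 of iron-sulfur assembly and iron handling (median -0.07) and 71 mitochondrial ribosomal proteins (median 0.04). The lowest p values in these lists belonged to Ndufb5 (0.32 ± 0.114, adjusted p = 0.208), the chaperonin partner Hspe1 (0.18 ± 0.0998, adjusted p = 0.503), the iron exporter Slc40a1 (-0.47 ± 0.136, adjusted p = 0.1) and Mrps18c (0.33 ± 0.116, adjusted p = 0.21). Cytosolic ribosomal protein genes had a positive difference in 57 of 64, a median of 0.12, and Rpl3l as their single call (0.32 ± 0.0802, adjusted p = 0.047). Among chaperones, 13 genes of the endoplasmic reticulum had a median of -0.12 with none called, Dnajc3 coming nearest (-0.33 ± 0.106, adjusted p = 0.142), and 7 cytosolic heat shock genes had a median of 0, with Dnajb1 at -0.22 ± 0.0728 (adjusted p = 0.171).

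**Figure D2:**
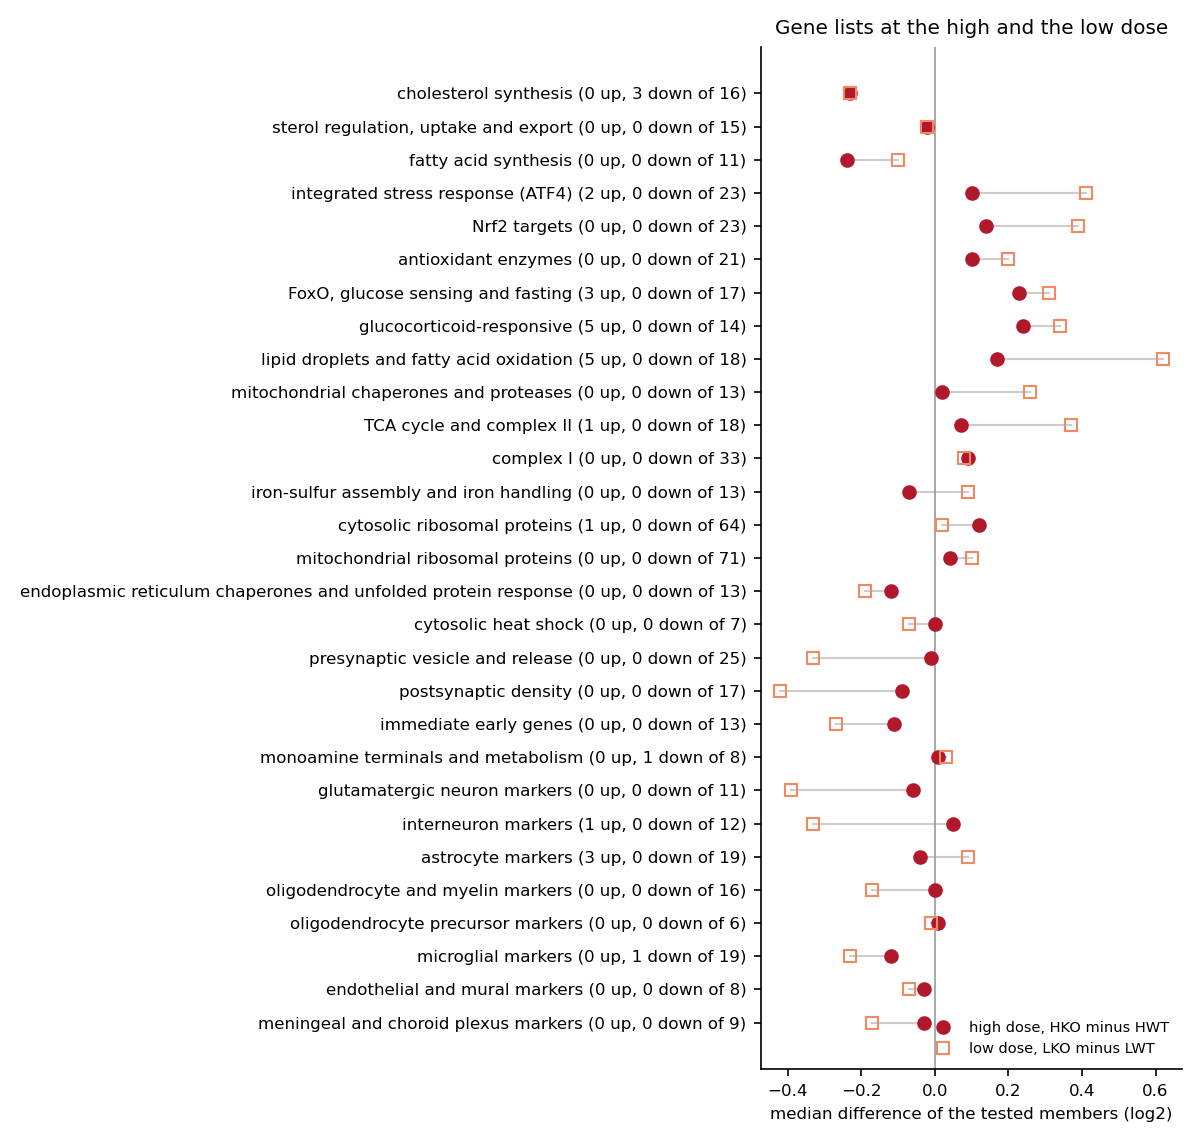
Median genotype difference (log2, x axis) over the tested members of each gene list with 6 or more members (rows, with the counts called at the high dose), filled circles for HKO minus HWT and open squares for LKO minus LWT. The cholesterol list sat at -0.23 at both doses, while the ATF4, Nrf2 and synaptic lists lay nearer 0 at the high dose.

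Several of the firmest rises lay outside these pathways. Rbm3, a cold-inducible RNA-binding protein, read 7.92, 8.2 and 8.63 in HKO mice against 7.0, 7.31 and 7.88 in HWT mice. The ranges did not overlap, and the difference was 0.88 ± 0.156, or 1.83-fold (adjusted p = 0.00159). Cirbp, the related cold-inducible protein, singled out after its values were seen, was higher by 0.64 ± 0.12 (adjusted p = 0.00231). The Rbm3 difference was smaller at the high dose than at the low dose by 0.89 (interaction adjusted p = 0.0143), and that of Cirbp, 0.73 at the low dose, was not called different (adjusted p = 0.854). The calls of both genes held without each array.

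Agt, angiotensinogen, which astrocytes make in the brain, read 6.94, 7.23 and 8.21 in HKO mice against 6.01, 6.38 and 6.7 in HWT mice. Every HKO mouse lay above every HWT mouse, with a difference of 0.96 ± 0.141, or 1.94-fold (adjusted p = 8.12e-05). LKO mice stood higher still, at 7.88, 8.52 and 9.25 against 5.91, 6.39 and 7.01 in LWT mice, and the interaction of -1.10 was called (adjusted p = 0.000558). Etnppl, the ethanolamine-phosphate phospho-lyase of astrocytes, read 5.46, 6.67 and 7.79 in HKO mice against 4.67, 5.17 and 5.46 in HWT mice. The groups met at 5.46, the difference was 1.34 ± 0.278, or 2.54-fold (adjusted p = 0.00833), and the other Etnppl probe gave 1.05 ± 0.272 (adjusted p = 0.0544). HWT signal was above background in 5 of 10 mice.

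With Glul, glutamine synthetase (0.56 ± 0.14, adjusted p = 0.0461, lost without 13 of the 20 arrays), these were the 3 astrocyte markers that rose of 19 tested. Glul read 6.83, 7.53 and 8.71 in HKO mice against 6.2, 7.16 and 8.1 in HWT mice, with wide overlap. Only 6 of 10 HKO mice lay above the HWT mean, while the difference was positive on 6 of 6 chips. Over all probes 0.377% were called higher. Across the astrocyte list 12 of 19 differences were negative and the median was -0.04. The mean level, 8.45 to 8.99 in HKO mice and 8.42 to 8.78 in HWT mice (log2), was higher in HKO mice on 5 of 6 chips. The summed signal ran from 26076 to 31007 in HKO mice and from 25030 to 34752 in HWT mice. Microglial markers leaned lower, with 16 of 19 negative, a median of -0.12 and a lower mean level in HKO mice on 6 of 6 chips. Fcrls, a microglial Fc receptor-like scavenger molecule, was the single call. It read 6.48, 7.19 and 7.57 in HKO mice against 7.58, 7.88 and 8.32 in HWT mice, without overlap by a narrow margin, for a difference of -0.85 ± 0.186 (1.80-fold lower, adjusted p = 0.0165). Its call was lost without HKO mouse 1 (adjusted p = 0.0728, difference -0.74). The summed signal of the microglial list was 4269 to 5676 in HKO mice and 4754 to 6852 in HWT mice, and its part in the Fcrls result was not tested.

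Synaptic genes showed no call, with 0.2% of all probes called lower at the high dose and 10% at the low dose. None of 25 presynaptic genes (median -0.01) and none of 17 postsynaptic density genes (median -0.09) passed, a count of 0 that the share over all probes would also give in lists of this size; 9 and 10 fell at the low dose with medians of -0.33 and -0.42. Stx1a, the plasma membrane syntaxin of vesicle fusion, was at -0.21 ± 0.081 (adjusted p = 0.262) and differed less at the high dose by a called interaction (0.45, adjusted p = 0.0195). Kalrn, a guanine nucleotide exchange factor of dendritic spines, was at -0.37 ± 0.123 (adjusted p = 0.164). No glutamatergic marker of 11 (median -0.06, Tbr1 at -0.52 ± 0.152, adjusted p = 0.0994) and no immediate early gene of 13 (median -0.11) was called. Arc, the activity-regulated synaptic protein, varied from 5.92 to 8.39 in HKO mice and from 7.21 to 10.3 in HWT mice, for -1.09 ± 0.335 (adjusted p = 0.13). Calb2, calretinin, was the single call of 12 interneuron markers (0.42 ± 0.105, adjusted p = 0.047; median 0.05) and was lost without 15 of the 20 arrays.

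Myelin (16 genes, median 0.00), oligodendrocyte precursor (6, median 0.01), endothelial and mural (8, median -0.03) and meningeal or choroid plexus markers (9, median -0.03) gave no call. Their lowest p values were those of Mal (0.60 ± 0.205, adjusted p = 0.182), Pdgfra (0.22 ± 0.128, adjusted p = 0.539), Vtn (-0.28 ± 0.14, adjusted p = 0.456) and Igf2 (-0.37 ± 0.114, adjusted p = 0.13). Hba-a1, the single red cell gene that passed the filter, was at -0.08 ± 0.309 (adjusted p = 0.962). Snhg11, the single nuclear RNA marker tested, was at -0.09 ± 0.279 (adjusted p = 0.954).

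Tph2, the tryptophan hydroxylase that limits serotonin synthesis in raphe neurons, fell. It read 5.25, 5.9 and 6.23 in HKO mice against 6.12, 6.64 and 7.03 in HWT mice, so that the ranges met only at their edges. The difference was -0.70 ± 0.107, or 1.62-fold lower (adjusted p = 0.000116), it was negative on 6 of 6 chips, and the call held without each array. Tph2 lay lower still in LKO mice (5.07, 5.21 and 5.55, against 6.03, 6.46 and 6.96 in LWT mice), with an interaction of 0.48 that was not called (adjusted p = 0.0684). It was the single call of 8 tested genes of monoamine terminals and metabolism, whose median was 0.01.

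Other firm falls had no shared list. Histone genes H3c6 (-0.64 ± 0.103, adjusted p = 0.00028) and, singled out afterwards, H3c4 (-0.38 ± 0.0797, adjusted p = 0.0111) encode replication-type histone H3. H3c6 read 5.48, 6.09 and 6.22 in HKO mice against 6.44, 6.56 and 7.06 in HWT mice, without overlap. Ank1, an ankyrin that links membrane proteins to spectrin, had 2 called probes of 4, at -0.49 ± 0.0882 (adjusted p = 0.00171) and -0.44 ± 0.11 (adjusted p = 0.047), and the other probes at 0.07 and -0.09. Tlcd4, a TLC-domain membrane protein formerly named Tmem56, fell by 0.64 ± 0.119 (adjusted p = 0.00206), and Lypd1, a GPI-anchored modulator of nicotinic receptors, by 0.51 ± 0.0943 (adjusted p = 0.00206). Igdcc4 fell by 0.56 ± 0.116 (adjusted p = 0.00833) and Lonrf2 by 0.56 ± 0.123 (adjusted p = 0.0165). Of these, H3c4 lost its call without HKO mouse 1 (adjusted p = 0.0505) and Lonrf2 without HKO mouse 1 or HKO mouse 5 (highest adjusted p 0.0616).

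Among the remaining called genes, singled out after their values were seen, Rtp1, a receptor-transporting protein above background in 10 HKO mice and 2 HWT mice, was higher by 0.58 ± 0.101 (adjusted p = 0.00137) and Itih3, an inter-alpha-trypsin inhibitor heavy chain, by 0.72 ± 0.14 (adjusted p = 0.0044). Their calls held without each array. Both probes of Retsat, retinol saturase, were higher (0.71 ± 0.161 and 0.51 ± 0.129, adjusted p = 0.0237 and 0.047), as were Nudt7, a peroxisomal coenzyme A diphosphatase (0.59 ± 0.125, adjusted p = 0.0127), and Pex11a, a peroxisome proliferation factor (0.45 ± 0.106, adjusted p = 0.0332). Mfsd2a, the lysophosphatidylcholine transporter that brings docosahexaenoic acid into brain, was higher by 0.46 ± 0.103 (adjusted p = 0.0195). The other Pex11a probes were at 0.47 and 0.11 (adjusted p = 0.111 and 0.703). Retsat and Pex11a lost their calls without 5 and 8 of the 20 arrays. Nudt7 lost it without HKO mouse 1 or HKO mouse 8 (highest adjusted p 0.055), and Mfsd2a without HKO mouse 1, HKO mouse 5, HWT mouse 18 or HWT mouse 19 (highest 0.0876). Ifitm3, an interferon-induced membrane protein, was higher by 0.84 ± 0.209 (adjusted p = 0.0435) and lost its call without 13 arrays. Lasp1, an actin-binding LIM protein, was lower by 0.41 ± 0.0787 (adjusted p = 0.00383) and Srsf1, a splicing factor, by 0.47 ± 0.106 (adjusted p = 0.0195, lost without HKO mouse 1 or HKO mouse 5 at up to 0.0579).

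Calls were more frequent on chromosome 17, which carries Sod2, than elsewhere. Of 645 tested probes there, 12 were called (1.86%), against 64 of 12468 on the other chromosomes (0.513%); at the low dose the shares were 22.3% and 20.8%. Chromosome 13 came close, with 7 of 433 probes called (1.62%), followed by chromosome 8 (1.17%) and chromosome 3 (1.13%). This is a description with no test. In RefSeq gene order the called genes were spread widely: Rsph3a lay 33 protein-coding genes before Sod2, and the other 11 lay from 23 genes (Tcte3) to 778 genes (Plin4) after it. Within 50 genes of Sod2, 2 of 41 probes were called (4.88%), and beyond 300 genes 7 of 446 (1.57%).

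Enpp5, an ectonucleotide pyrophosphatase family member 651 genes from Sod2, gave the largest difference of all called genes. It read 8.57, 9.06 and 9.56 in HKO mice against 5.72, 6.89 and 9.07 in HWT mice, for 2.01 ± 0.434, or 4.02-fold (adjusted p = 0.0141). HKO mice were tight (SD 0.347) while HWT mice spread widely (SD 1.21), and LWT and WT mice spread as widely, from 5.56 to 8.53 and from 5.85 to 9.13. Dcpp1, a demilune cell and parotid protein 144 genes from Sod2, read 5.2, 5.41 and 5.97 in HKO mice against 4.09, 4.53 and 4.72 in HWT mice. It was above background in 9 HKO mice and 0 HWT mice, so the ratio was at least 1.21-fold (measured difference 0.93 ± 0.132, adjusted p = 8.12e-05), with the lower bound set by the dimmest signal above background on each HWT array.

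Cyp4f16, a cytochrome P450 364 genes away, fell by 0.58 ± 0.103 (adjusted p = 0.00142), was above background in 2 HKO mice and 10 HWT mice, and its other 2 probes gave -0.08 and -0.09. Complement gene C2 was higher by 0.57 ± 0.123 (adjusted p = 0.0141, lost without HKO mouse 1, 5 or 8, highest 0.0559). The rest were Rsph3a (-0.47 ± 0.119, adjusted p = 0.0462), Vegfa (-0.33 ± 0.0828, adjusted p = 0.047), Tcte3 (0.36 ± 0.0892, adjusted p = 0.0444), Mrps10 (0.32 ± 0.0777, adjusted p = 0.0363) and Rpl3l, Fkbp5, Angptl4 and Plin4 as above. The calls of Rsph3a, Vegfa, Tcte3, Mrps10 and Rpl3l were lost without 16, 16, 15, 11 and 17 of the 20 arrays. An effect of the chromosome segment that travels with the knockout allele and an effect of the missing enzyme cannot be told apart in this cross.

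**Figure D3:**
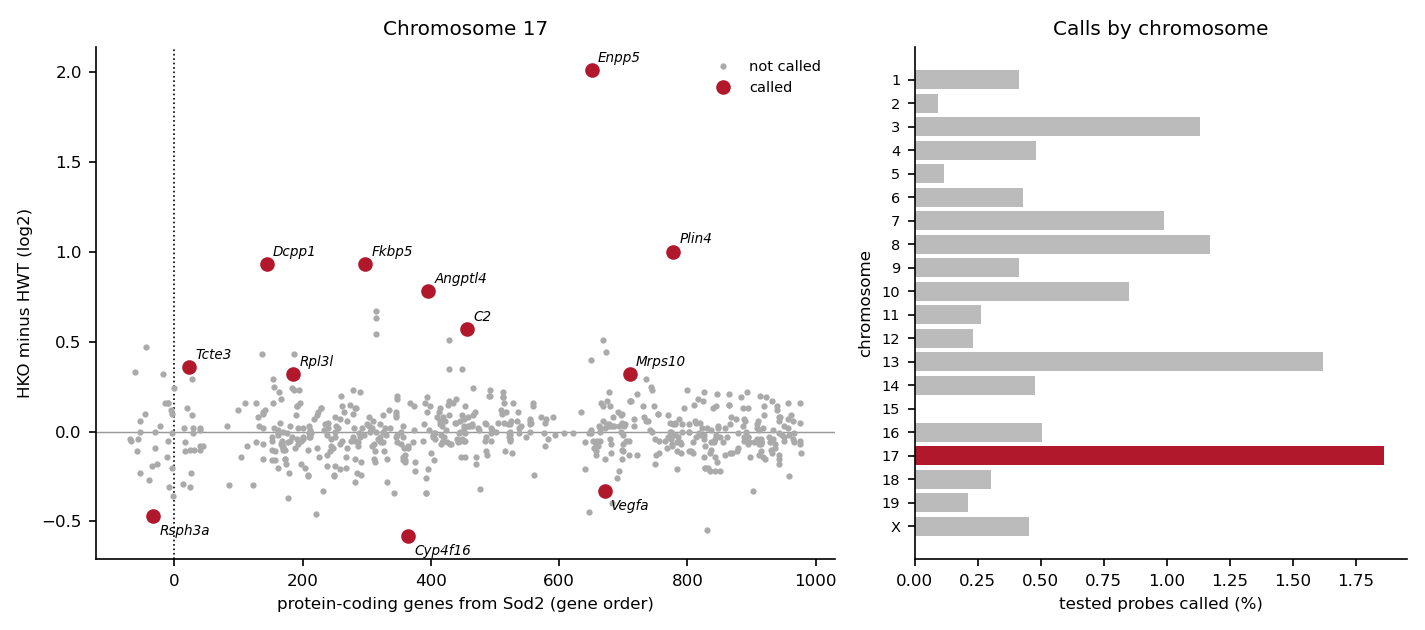
Left, HKO minus HWT difference (log2, y axis) of tested probes on chromosome 17 by the number of protein-coding genes from Sod2 (x axis, Sod2 at the dotted line), called probes in red; right, percent of tested probes called on each chromosome, chromosome 17 in red. The 12 called probes lay from 33 genes before Sod2 to 778 genes after it, and chromosome 17 had 1.86% called.

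The high-dose difference was set against that at the low dose, measured in other mice. At the low dose limma called 2810 probes (20.8%), and 67 of the 78 high-dose calls were among them with the same sign, which is 85.9% of the high-dose calls and 2.38% of the low-dose calls. The other 11 were not called at the low dose, among them Plin2, C2, Glul, Calb2, Tcte3 and, singled out afterwards, Rtp1. Probes called at the low dose had the same sign at the high dose in 80.5% of cases, against 61.6% of all tested probes. Their median difference in the low-dose direction was 0.103 at the high dose, against a median size of 0.383 at the low dose, and the slope of the high-dose on the low-dose difference was 0.295. The probes were chosen on the low-dose values, which by itself makes the low-dose sizes larger.

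The interaction was called for 399 probes (2.95%), and the difference was smaller in size at the high dose for 381 of them and larger for 18. This direction went with the low-dose call: 380 of the 399 were called at the low dose, and 379 of these were smaller at the high dose. Of the 19 not called at the low dose, 17 were larger at the high dose. In 173 of the 399 the sign at the high dose was opposite to that at the low dose. Among the 78 high-dose calls, 14 had a called interaction. The 6 with the smallest interaction p values were Agt and, besides it, Nln, Adarb1, Hr, Cd151 and Lypd1, all smaller at the high dose. Nln, the peptidase neurolysin, differed by 0.52 ± 0.102 at the high dose and 1.33 at the low dose (interaction adjusted p = 0.00052), and Cd151, a tetraspanin, by 0.36 ± 0.0878 and 0.91 (adjusted p = 0.00608). Falls were smaller likewise in Adarb1, an RNA-editing adenosine deaminase (-0.35 ± 0.08 and -0.96, adjusted p = 0.000643), Hr, the hairless corepressor (-0.39 ± 0.0957 and -1.03, adjusted p = 0.00374), and Lypd1 (-0.51 ± 0.0943 and -1.08, adjusted p = 0.00999). The other Adarb1 probes were at -0.23 and 0.11 at the high dose (adjusted p = 0.329 and 0.726). Cd151, Hr and Adarb1 lost their high-dose calls without 12, 12 and 7 of the 20 arrays.

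HKO mice differed from each other in how much of the low-dose pattern they carried. For each mouse, the difference from the mean of the HWT mice (the other HWT mice, for an HWT mouse) was regressed through 0 on the low-dose difference over the 2810 low-dose calls. That mean was taken over all chips, so these slopes mix differences between mice with differences between chips. The slope was 0.021, 0.286 and 0.636 (lowest, median, highest) in HKO mice and -0.134, 0.016 and 0.118 in HWT mice. HKO mice 7, 10 and 6, at 0.021, 0.081 and 0.122, lay in or next to the HWT range. The HWT mice on their own chips were lower, at -0.051 (chip 5, HKO mouse 7), -0.134 (chip 7, HKO mouse 10) and 0.021 and -0.075 (chip 4, HKO mouse 6). HKO mouse 1 was the highest at 0.636, with HKO mouse 5 next at 0.44. Leaving out HKO mouse 1 took the group slope to 0.255.

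**Figure D4:**
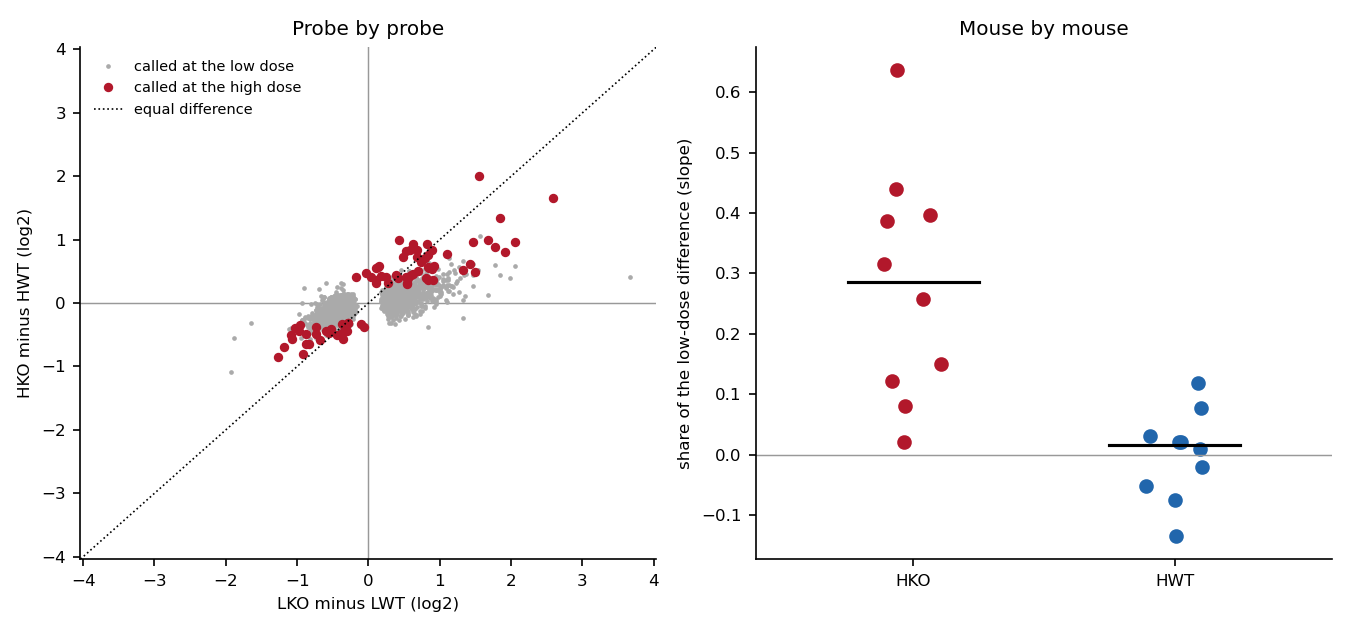
Left, HKO minus HWT (y axis) against LKO minus LWT (x axis), both log2, for the 2810 probes called at the low dose (grey) and the 78 called at the high dose (red), with a dotted line of equal difference; right, the slope of each high-dose mouse on the low-dose difference (1 point per mouse, bar at the median). Most grey points lie closer to 0 on the y axis than on the x axis, and HKO slopes range from 0.021 to 0.636.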

How the data were processed

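RNA of 50 synaptosome samples was hybridised to Illumina MouseRef-8 arrays, 1 array per mouse, on 7 chips. The deposited raw table holds average bead intensity per probe, not normalised, per the file headers; the lowest value was 31.1. A second deposited table holds the authors' processed log2 values (column medians 6.02 to 6.03, at least 0.988 correlated with the values below); their background correction, scaling and any centring are not given in the sources used here, and they served as an alternative.

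Intensities were corrected with normexp (offset 16), quantile-normalised and log2-transformed. A probe counted as above background on an array beyond the lower signal peak plus 1.645 of its SD, since no detection p was used here; 13527 of 25697 probes passed on at least 9 arrays. limma 3.58.1 (R 4.3.3) fitted the 5 groups and chip over all 50 arrays, with Benjamini-Hochberg adjustment over all tested probes and calls at 0.05. Of the probes, 95.84% matched a RefSeq gene, whose current symbol is used. The number of arrays limits the precision. SEs and p-values rest on a spread between mice within groups that was pooled over all 50 arrays, not on that of the 20 high-dose arrays alone. A single pooled spread stands for both groups even where they differ, as for Plin4 (SD 0.966 in HKO and 0.157 in HWT mice). Gene lists use the brightest tested probe per gene. Named genes are Sod2, the 12 largest rises and falls, called list members, the nearest member of lists without a call, called chromosome 17 genes and the 6 smallest interaction p values. Where a named gene had several tested probes, the values given are those of the probe with the smallest high-dose p. Other probes were often not called, with differences of -0.15 for Vegfa, 0.17 for Mrps10, 0.15 for Nln, 0.24 for Calb2 and 0.71 for Tsc22d3. Further called genes had such probes too. Members and lists were chosen with earlier results of these data known. Some called genes are not reported here. No 2 arrays held identical values.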

Additional observations from a re-analysis of the deposited data

Results flagged for a closer look

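Single mice lay far from the rest of their group in several named genes, by a gap larger than Dixon's 95% limit. Chance flags about 1 in 20 groups. With 91 named genes in 5 groups, chance alone would give about as many flags as are listed here, so a single flag carries little weight. In HKO mouse 1 this held for Nfkbia (8.09 against a next value of 7.02), Angptl4 (8.42 against 6.86), Tlcd4 (6.66 against 7.20), Arc (5.92 against 7.28), Fbxl14 (6.86 against 7.15) and Srsf1 (7.75 against 8.63). Without this mouse 26 probes were called in place of 78. Rsph3a was lowest in HKO mouse 6 (5.35). In HWT mice, Nupr1 was highest in mouse 19 (9.02), Snhg11 in mouse 11 (7.22) and Lasp1 in mouse 16 (11.81), and Fkbp5 (5.12) and Fibp (7.13) were lowest in mouse 13 and Lypd1 in mouse 19 (7.83).

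In the groups not compared here, H3c6 was lowest in LKO mouse 25 (4.86), Mrps18c in LKO mouse 30 (6.23), and Srsf1 was highest in LKO mouse 28 (9.15). Among untreated WT mice Nfkbia (5.30), Stx1a (10.03), Mrps10 (6.04), Tmem88b (4.91) and Nt5e (4.71) had a low mouse, and Srsf1 a high one (9.34).

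The genotype difference differed between the doses, by limma's interaction at an adjusted p under 0.05, for 15 named genes. High minus low dose, it was -1.11 for Atf5, -1.10 for Agt, -0.89 for Rbm3, -0.86 for Gstm1, -0.81 for both Pnpla2 and Nln, -0.56 for Cd151 and -0.46 for Acadvl. It was 0.63 for Hr, 0.62 for Adarb1, 0.57 for both Lypd1 and Plin2, 0.54 for Plch2, 0.50 for Fibp and 0.45 for Stx1a. In Plin2 and Fibp the difference was 0.41 and 0.47 at the high dose and -0.17 and -0.03 at the low dose, larger in size at the high dose.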

How the results depend on the processing

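All 78 calls kept their sign in every alternative in which their probes were tested. The number called was 46 with only the high-dose arrays in the fit (25 higher), 48 with median scaling (20 higher and 28 lower, a 41.7% share of rises in place of 65.4%; interaction 223), 47 with no filter (27 higher), 30 without the 5 dimmest arrays (17 higher, 13 lower), 118 with array weights (50 lower) and 121 with chip position as a covariate (47 lower); the cause was not tested. Of the 78 calls, 33 were kept with only the high-dose arrays, 39 with median scaling, 46 with no filter and 30 without the 5 dimmest arrays. Array weights kept 76 of them and the position covariate 75. With the authors' processed values the number called was 94, 70 of the 78 among them. With single arrays left out it ran from 26 to 125 (16 to 80 higher, 10 to 48 lower), and the interaction count from 292 to 443. With single chips left out it ran from 17 to 72: chip 1 gave 17 (11 higher, 6 lower), chip 3 gave 46 (24 higher), chip 4 gave 29 (17 and 12) and chip 6 gave 24 (15 and 9), with interaction counts of 187 without chip 3, 186 without chip 5, 217 without chip 6 and 201 without chip 7. The same-sign share ran from 76.7% to 83.5% and the slope from 0.241 to 0.332 over all leave-outs. Nupr1, Txnip, Agt, Dcpp1, Rbm3, Tph2, Tlcd4, H3c6, Cyp4f16 and Lypd1 were called in all 13 alternatives and all 26 leave-outs, as were Cirbp and Rtp1. Among the named genes the sign turned only in 2 that were not called: Hba-a1, which ran from -0.30 to 0.08 with arrays or chips left out, was at 0.03 without HKO mouse 7, 0.01 without HWT mouse 20, 0.05 without chip 5 and 0.08 without chip 7, and Snhg11, running from -0.16 to 0.03, at 0.03 without HWT mouse 11. No paired analysis was possible because HKO and HWT mice share no replicate numbers; the comparison matched by chip is the fit reported, with chip as a block.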
